A study of Arabidopsis thaliana with 12 samples.

Results

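Leaves of the Arabidopsis thaliana mutant line chlorella-1 were compared with leaves of the wild type Col at 26 days of age, across every gene expressed there. The comparison takes its libraries from the labels alone: 3 of Col and 3 of chlorella-1 at 26 days, 6 of the 12 libraries in the study, each of leaf RNA from which ribosomal RNA had been depleted. The other 6 libraries hold the same genotypes at 14 days. The line is named after CHLORELLA, which the study's title describes as a long noncoding RNA directed to the chloroplast. No treatment is given for either genotype, only 1 mutant line was used, and the sources do not say what lesion it carries. No gene of that name is in the table or in the annotation, so the RNA itself could not be followed and the genotype of each library rests on its label.

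The table lists 38288 genes, of which 11015 had no count in any of the 6 libraries and 19159 had enough counts to be tested. Levels below are normalised read counts, counts scaled to a common library size (CPM), given in the order of replicates 1, 2 and 3. A gene was called when its p from edgeR's quasi-likelihood test, adjusted by Benjamini-Hochberg, was below 0.05, and "rose" and "fell" are used only of called genes, for chlorella-1 against Col. Every adjusted p comes from that test. Log2 fold changes carry their standard error and means their SD, with n = 3 per genotype.

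Senescence is the last phase of a leaf's life, in which chloroplasts are taken apart first and their nitrogen, lipids and metals are sent to growing organs, while the nucleus and the mitochondria work on until late. NAC and WRKY transcription factors, abscisic acid, ethylene and jasmonate are known to promote it, and cytokinin to delay it. Autophagy, proteases and ubiquitin ligases break proteins down, and beta-oxidation in peroxisomes consumes the fatty acids of the thylakoid membranes.

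Each library held 45120547 to 62688704 counts on genes. Nuclear genes took 27.5 ± 0.506% of the counts in Col and 43.1 ± 5.57% in chlorella-1, and plastid genes took 72.0 ± 0.549% and 55.8 ± 5.81%. In a two-sided exact permutation test both differences gave p = 0.1, the smallest value that 3 against 3 libraries allow. Replicate 2 of chlorella-1 lay away from the other 2 mutant libraries on the second principal component, with a score of -84.5 against 41.8 and 63.1, so class medians are also given per mutant library. The median SD of a gene's log2 level was 0.440 in chlorella-1 and 0.227 in Col. The 4 mesophyll markers, for Rubisco, antenna proteins and carbonic anhydrase, summed to 1337 to 2978 CPM in Col and to 203 to 277 CPM in chlorella-1, and all of them fell. Of 5 guard cell markers 4 rose, with sums of 7.23 to 10.6 CPM against 50.03 to 99.96 CPM, and of 5 phloem markers 4 rose, with sums of 268 to 296 CPM against 430 to 736 CPM. Of 6 epidermis and trichome markers 2 fell, with sums of 53.8 to 81.8 CPM against 13.6 to 39.8 CPM. Of 8 flower and pollen markers 3 rose, with sums of 0.670 to 1.34 CPM against 11.4 to 38.0 CPM. Among the 3, VGD1 and PPME1 had enough counts in chlorella-1 alone, so the filter for counts fixed their direction. VGD1, a pollen gene, made up most of the mutant sums, at 33.9, 7.75 and 32.7 CPM. PI, which had enough counts in both genotypes, rose from 0.631 to 1.85 CPM. The flower markers AP3, AG, AP1 and LFY had too few counts to be tested, and SEP3 was not called. Root, xylem and dividing-cell markers stayed at sums of 3.08 CPM or less in every library and seed markers were at 0. In leaf RNA, fewer cells of a type and less RNA per cell cannot be told apart, and the part of cell makeup in the results below was not tested.

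**Figure D1:**
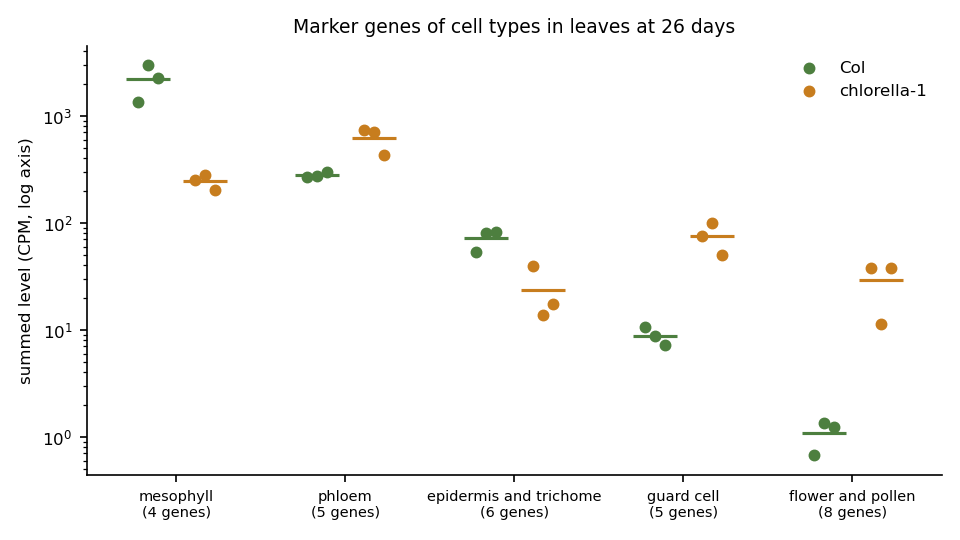
Summed normalised read count (CPM, log axis) of the marker genes of 5 cell types or organs in each library at 26 days, 3 points per genotype, with the bar at the mean. Mesophyll sums lie below the Col points in all 3 chlorella-1 libraries, whereas guard cell, phloem, and flower and pollen sums lie above them. The pollen gene VGD1 makes up most of the flower and pollen sums in chlorella-1.

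Old chlorella-1 leaves differed from Col in 9888 genes. Of the 19159 genes tested, 5530 rose, 28.9%, and 4358 fell, 22.7%, with a median log2 fold change of -0.08. Of the 1379 genes that reached the minimum of 0.171 CPM in chlorella-1 alone 1067 rose and none fell, and of the 1586 that reached it in Col alone 588 fell and none rose. The filter thus fixed their direction, so the classes are counted over genes that reached it in all 3 libraries of each genotype. Of these 15746 genes, 4463 rose, 28.3%, and 3770 fell, 23.9%, with a median of -0.06, and a class's counts are to be read against these shares. Without Col replicate 2 the number that fell was 2744 and without Col replicate 3 it was 2687, while the number that rose stayed between 4396 and 5606 with any library left out. Genes were sorted into 90 classes by words of their deposited description, for example "NAC domain", and into 12 short pathway lists by locus. No class as a whole and no difference between classes was tested. The classes went far apart: nearly every light-harvesting and photosystem protein fell, most jasmonate ZIM-domain proteins, autophagy proteins and NAC factors rose, and cytochrome P450s, sugar transporters and translation factors stood near the shares of all genes.

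**Figure D2:**
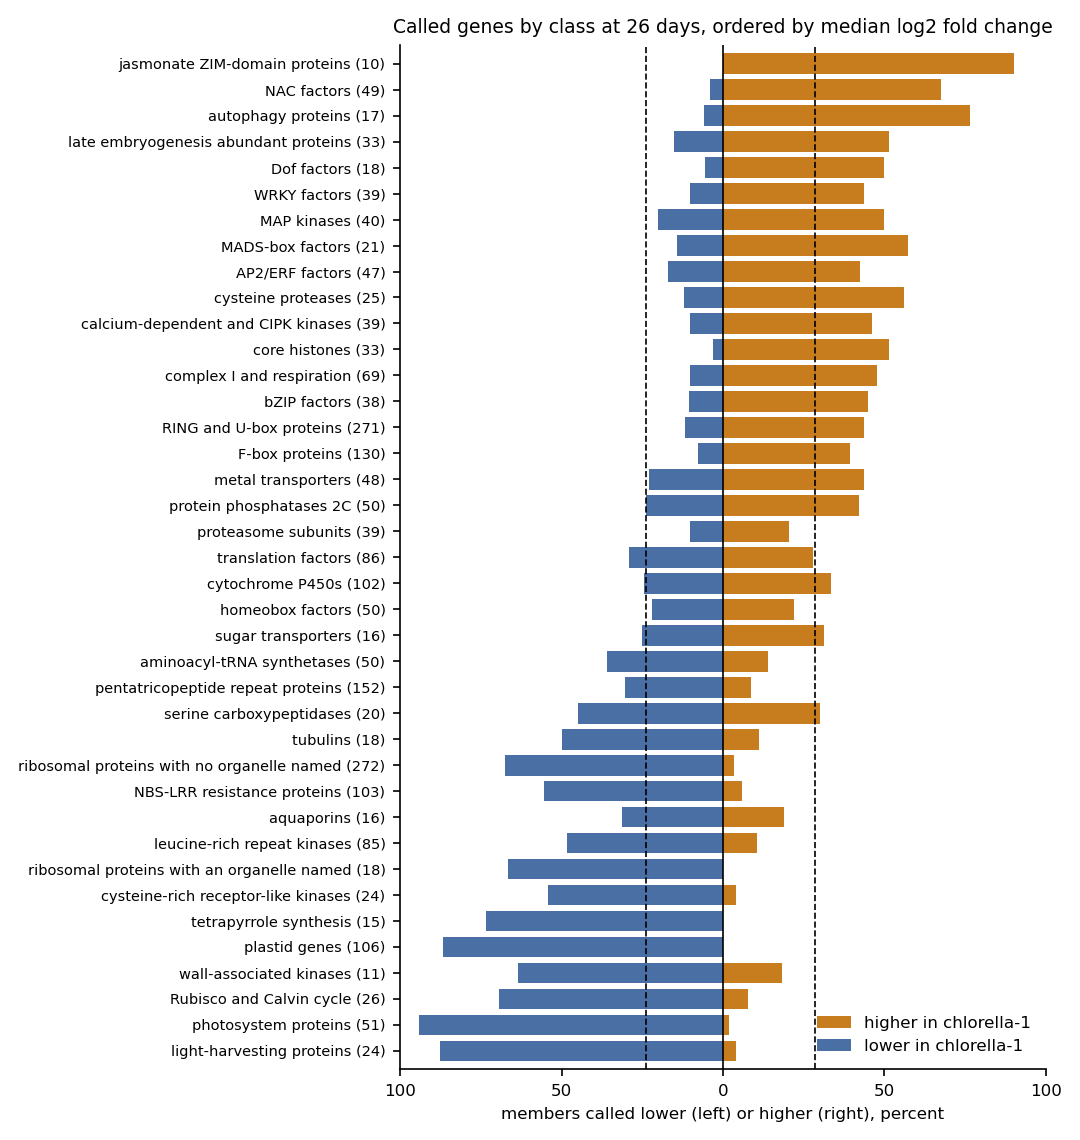
Share of class members called higher (bars to the right) and lower (bars to the left) in chlorella-1 against Col at 26 days, in percent of members reaching the CPM minimum in both genotypes, with the number of such members beside each name. The dashed lines mark the shares over all 15746 such genes, 28.3% higher and 23.9% lower.

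Among genes with a symbol, the largest single rises were in genes that Col nearly lacked. By the rule for naming genes (called, with a symbol, no overlap between genotypes, at least 5 CPM in a genotype), NPC4, a phospholipase C of membrane lipid turnover, had 0.252, 0.39 and 0.372 CPM in Col and 128, 132 and 58.9 CPM in chlorella-1. HAI3, a phosphatase of abscisic acid signalling, had 0.0787, 0.0354 and 0 CPM in Col and 24.2, 28.5 and 2.32 CPM in chlorella-1, and FTSH6, a chloroplast protease, had 0.0944, 0.0709 and 0.0847 CPM in Col and 33.2, 36.4 and 11.1 CPM in chlorella-1. Each was near 0 in every Col library, and so were the other genes among the 12 largest rises of genes with a symbol. NPC4 reached the CPM minimum in both genotypes. HAI3 and FTSH6 reached it in chlorella-1 alone, so the filter fixed their direction. FTSH6 lies opposite another counted gene, so its level is uncertain. At the other end stood 4 plant defensins of the PDF1 family, small antimicrobial proteins under jasmonate and ethylene control. PDF1.2 had 86.1, 30.8 and 5.93 CPM in Col and 0.0315, 0.214 and 0.143 CPM in chlorella-1, wide apart between Col libraries and near 0 in every mutant library. The defensins share long stretches of sequence, and their single levels are uncertain. FBA5, an aldolase of sugar metabolism, had 91.9, 242 and 129.9 CPM in Col and 2.02, 9.65 and 0.107 CPM in chlorella-1. It fell by 5.31 ± 1.31 on the log2 scale with adjusted p = 0.0133. FBA5 and the 4 defensins reached the CPM minimum in Col alone, so the filter fixed their direction.

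In several families of transcription factors more members rose than fell, among them the NAC family. In it 33 of 49 members rose and 2 fell, with a median log2 fold change of 1.87. Over the tested NAC genes the median was 1.15, 1.76 and 1.33 in mutant replicates 1, 2 and 3, each against the Col mean. NAC3 (AT3G15500, also known as NAC055), a NAC factor of jasmonate and abscisic acid responses, had 28.8, 23.8 and 34.05 CPM in Col and 1899, 2090.1 and 1445 CPM in chlorella-1. The lowest mutant library was far above the highest Col library, and the log2 fold change was 5.97 ± 0.32 with adjusted p = 0.000199. NAC019, a close relative of it, had 56.6, 26.7 and 40.99 CPM in Col and 809, 1088 and 664 CPM in chlorella-1, again without overlap, a log2 fold change of 4.37 ± 0.38 with adjusted p = 0.000335. ATAF1, a NAC factor of stress responses, rose from 28.5 to 411 CPM. The 2 members that fell, picked out here after their values were seen, were LOV1, with a log2 fold change of -1.19, and SOG1, a regulator of the DNA damage response, with -0.91. Neither call held with every library left out in turn: the adjusted p of LOV1 was 0.0533 to 0.0816 without Col replicates 2 or 3 or chlorella-1 replicate 1, and that of SOG1 0.0541 to 0.0765 without Col replicates 1, 2 or 3 or chlorella-1 replicate 3.

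Among the other families 17 of 38 bZIP factors rose and 4 fell, 17 of 39 WRKY factors rose and 4 fell, and 20 of 47 AP2/ERF factors rose and 8 fell. Likewise 12 of 21 MADS-box factors rose and 3 fell and 9 of 18 Dof factors rose and 1 fell. In the same order the median log2 fold changes were 0.49, 0.86, 0.76, 0.80 and 0.94. The WRKY median moved between libraries, at -0.02, 0.37 and 0.29 over the tested members. bZIP1, a factor of low-sugar responses, had 12.6, 18.4 and 18.7 CPM in Col and 329, 374 and 289 CPM in chlorella-1 and rose by 4.32 ± 0.27 on the log2 scale with adjusted p = 0.000222. BZIP53 and BZIP25, with which bZIP1 can pair, rose, with log2 fold changes of 2.99 and 2.29. WRKY6 and WRKY25 rose, with log2 fold changes of 3.29 and 2.57, whereas WRKY54, a regulator of salicylic acid responses that is known to restrain senescence, fell from 11.2 to 1.88 CPM. WRKY54 had an adjusted p of 0.0503 without Col replicate 2. MYB2 rose from 16.8 to 220.05 CPM and BHLH92 from 0.359 to 89.5 CPM.

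Not every family leaned upward. Of the homeobox factors 11 of 50 rose and 11 fell with a median log2 fold change of -0.37, and of the TCP factors, which set leaf growth, 1 of 10 rose and 2 fell with a median of -0.89. HBI1, a bHLH factor that promotes growth and restrains immunity, had 16.1, 40.9 and 40.4 CPM in Col and 1.01, 1.997 and 0.697 CPM in chlorella-1. Col replicate 1 was the lowest of the Col libraries and still far above the highest mutant library, and the log2 fold change was -4.73 ± 0.55 with adjusted p = 0.00074. The B-box factors BBX14 and BBX16, of a family known from light responses, fell, with log2 fold changes of -3.04 and -3.63. ORA59, which joins jasmonate and ethylene signals at defence genes, fell from 9.87 to 0.761 CPM, with adjusted p = 0.00829.

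Genes for breaking proteins down are given by route. Of the autophagy proteins 13 of 17 rose and 1 fell, with a median log2 fold change of 1.80 and library medians of 1.61, 1.85 and 1.53. ATG8E, whose product is bound to the growing autophagosome membrane, had 20.6, 30.7 and 30.2 CPM in Col and 708, 728 and 606 CPM in chlorella-1, a log2 fold change of 4.65 ± 0.27 with adjusted p = 0.000208, without overlap. Of RING and U-box proteins, most of them ubiquitin ligases, 118 of 271 rose and 32 fell with a median of 0.49. Of F-box proteins, the substrate receptors of another kind of ubiquitin ligase, 51 of 130 rose and 10 fell with a median of 0.34. Another 28 F-box genes passed through chlorella-1 alone and 23 through Col alone. The class for the proteasome, which degrades the tagged proteins, stood near 0: 8 of 39 members rose and 4 fell with a median of -0.01. The class was sorted by description words and may hold proteins other than subunits, such as EER5 and COP8, which rose. The proteasome genes with the most counts, PA200 and RPN1A, were not called, at log2 fold changes of 0.53 and 0.34. UBQ10, which encodes chains of ubiquitin, rose from 994 to 2542 CPM.

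Proteases are given by their chemistry, and the counts of subtilases were near the shares of all genes. Among them 14 of 25 cysteine proteases rose and 3 fell, 12 of 31 aspartyl proteases rose and 3 fell, 4 of 18 subtilases rose and 3 fell and 6 of 20 serine carboxypeptidases rose and 9 fell. RD21A, a papain-like cysteine protease, had 587, 443 and 391 CPM in Col and 1792, 3246 and 1676 CPM in chlorella-1, and the log2 fold change was 2.24 ± 0.35 with adjusted p = 0.00219. Its mutant replicate 2 was the highest of all and no mutant library overlapped Col. CEP1, known from programmed cell death, rose from 0.745 to 47.1 CPM, while the abundant GAMMA-VPE was not called at 714 ± 172 CPM in Col and 1144 ± 205 CPM in chlorella-1. Of the organelle proteases FtsH, Clp and Deg, 5 of 32 rose and 11 fell. CLPX, the mitochondrial Clp chaperone, rose from 109 to 419.6 CPM, and DEG2 and DEG5, which act on photosystem II in the chloroplast, fell, with log2 fold changes of -2.37 and -2.88. DEG5 lies opposite another counted gene, and the strand setting of the counting is not given, so its level is uncertain.

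Chlorophyll is dismantled in a fixed series of steps, and 7 of the 8 listed genes of that pathway rose, with a median log2 fold change of 2.24. PPH, which removes the phytol tail of chlorophyll, had 143, 101.2 and 120.1 CPM in Col and 640.2, 993 and 642 CPM in chlorella-1, without overlap, a log2 fold change of 2.64 ± 0.28 with adjusted p = 0.000576. ACD2, the reductase of the red catabolite, which overlaps a gene on the same strand, was the 1 member not called, at 14.4 ± 1.65 CPM in Col and 7.21 ± 4.28 CPM in chlorella-1, and was called lower at adjusted p = 0.0259 without chlorella-1 replicate 2. It overlaps another gene on the same strand.

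Nitrogen handling changed isoform by isoform. Of the 9 listed genes of nitrogen recycling 5 rose and 3 fell, and glutamine synthetase and glutamate dehydrogenase each had members of both kinds. The cytosolic glutamine synthetase GSR 1 had 235, 256 and 195 CPM in Col and 729, 894 and 896 CPM in chlorella-1 and rose by 1.88 ± 0.23 on the log2 scale with adjusted p = 0.000863. The chloroplast glutamine synthetase GS2 had 163, 244 and 196 CPM in Col and 45.6, 18.5 and 49.4 CPM in chlorella-1 and fell by 2.41 ± 0.40 on the log2 scale with adjusted p = 0.00272. The cytosolic and the chloroplast form went in opposite directions, with no overlap between genotypes in either. Of the glutamate dehydrogenases of mitochondria, GDH2 rose from 52.9 to 611 CPM with a log2 fold change of 3.53 ± 0.32, and GDH1 fell from 28.95 to 4.17 CPM with -2.79 ± 0.20. The ferredoxin-dependent glutamate synthase GLU1 fell from 309.96 to 56.6 CPM. ASN1, the dark-induced asparagine synthetase, was not called, with 37.3, 167 and 107 CPM in Col and 63.2, 58.4 and 169 CPM in chlorella-1.

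Genes for burning fatty acids rose together and some of those for amino acids rose. Of the 11 listed genes of fatty acid breakdown 9 rose, with a median log2 fold change of 1.83, and the other two, ICL and MLS of the glyoxylate cycle, were not tested, at 0.289 CPM or less in every library. The acyl-CoA oxidase ACX2, which starts the cycle on long chains, had 46.9, 40.2 and 43.8 CPM in Col and 324, 498 and 222 CPM in chlorella-1, and rose by 2.996 ± 0.33 on the log2 scale with adjusted p = 0.000644. Of the listed genes of amino acid breakdown 5 of 9 rose and none fell. ERD5, the proline dehydrogenase, had 9.38, 39.2 and 20.9 CPM in Col and 213, 163 and 264 CPM in chlorella-1 and rose by 3.20 ± 0.52 on the log2 scale with adjusted p = 0.00262, and the lysine breakdown enzyme AT4G33150 rose by 3.05 on the log2 scale. IVD and MCCA of leucine breakdown were not called, at log2 fold changes of 0.05 and 0.12.

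Respiration leaned upward where photosynthesis fell. Of the nuclear genes of complex I and respiration 33 of 69 rose and 7 fell, with a median log2 fold change of 0.55 and library medians of 0.36, 0.53 and 0.53. Of the genes of the mitochondrial genome 33 of 50 rose and 1 fell, with a median of 0.85. AOX1A, the alternative oxidase that passes electrons to oxygen without pumping protons, had 36.6, 41.5 and 39.2 CPM in Col and 248, 450.4 and 222 CPM in chlorella-1 and rose by 2.97 ± 0.32 on the log2 scale with adjusted p = 0.0006. SDH2-1, the iron-sulfur subunit of succinate dehydrogenase, rose from 24.5 to 266 CPM, and the mitochondrial gene cox1 had 1016, 904 and 1023 CPM in Col and 1960.4, 2558 and 2275 CPM in chlorella-1 and rose by 1.21 ± 0.23 on the log2 scale. Plastid genes stood at the other end: none of 106 rose and 92 fell, with a median of -1.57 and library medians of -1.24, -1.55 and -1.61. These counts weigh each gene alike, and psbA, the plastid gene with the most counts, was not called. It had 526174, 582188 and 584664 CPM in Col and 531821, 760065 and 363403 CPM in chlorella-1. Its log2 fold change was -0.03 ± 0.51, with adjusted p = 0.962. Mitochondrial genes took 0.504 ± 0.0661% of the counts in Col and 1.08 ± 0.259% in chlorella-1.

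Genes of hormone synthesis and signalling were listed by hormone. Of the listed genes reaching the minimum in both genotypes, 5 of 8 ethylene genes and 5 of 7 abscisic acid genes rose and none fell. None of 9 salicylic acid genes rose and 5 fell, and 1 of 7 cytokinin genes rose and 4 fell. ACS2, an ACC synthase of ethylene production, had 4.36, 3.598 and 3.56 CPM in Col and 209, 293 and 104 CPM in chlorella-1 and rose by 5.72 ± 0.45 on the log2 scale with adjusted p = 0.000259. The lowest mutant library was many times above the highest Col library, and replicate 3 was the lowest of the mutant. Of the signalling genes EIN2 and ETR1 were not called, at log2 fold changes of -0.83 and 0.28, and EIN3, the main transcription factor of the response, rose by 0.74 on the log2 scale. ETR1 overlaps a gene on the same strand. The adjusted p of EIN3 was 0.0576 to 0.0856 without Col replicates 1, 2 or 3, and EIN2 was called lower at 0.0432 without chlorella-1 replicate 2.

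NCED3, which makes the rate-limiting cut in abscisic acid synthesis, had 17.2, 7.92 and 26.2 CPM in Col and 175, 352 and 121 CPM in chlorella-1, a log2 fold change of 3.66 ± 0.58 with adjusted p = 0.0023. AAO3, the oxidase of the last step, rose by 2.85 on the log2 scale, and CYP707A1, CYP707A3 and CYP707A4, which inactivate the hormone, rose, with log2 fold changes of 2.12, 1.87 and 1.198. Genes for making and for removing abscisic acid both rose. The adjusted p of CYP707A1 was 0.052 to 0.0844 without Col replicates 1, 2 or 3, and that of CYP707A3 0.0549 to 0.0867 without Col replicates 1 or 3 or chlorella-1 replicate 2. The hormone's co-receptors belong to the 2C protein phosphatases, of which 21 of 50 rose and 12 fell with a median log2 fold change of 0.18. Among the co-receptors, PP2CA had 60.8, 36.99 and 63.4 CPM in Col and 584, 889 and 319 CPM in chlorella-1 and rose by 3.48 ± 0.44 on the log2 scale with adjusted p = 0.00103, and HAI1 rose by 4.51 ± 0.69 on the log2 scale.

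Jasmonate ZIM-domain (JAZ) proteins hold back jasmonate responses and are themselves made in response to the hormone. Of the class 9 of 10 rose and none fell, the exception being NINJA, an adaptor of the JAZ proteins, at a log2 fold change of -0.43. The median was 2.62 with library medians of 1.74, 2.90 and 1.71. JAZ1 had 12.8, 6.398 and 10.8 CPM in Col and 187, 445 and 149.995 CPM in chlorella-1, highest in replicate 2, and rose by 4.71 ± 0.53 on the log2 scale with adjusted p = 0.000691. Genes of jasmonate synthesis did not move as one. LOX2 of the chloroplast had 365, 179 and 311 CPM in Col and 25.99, 9.84 and 102 CPM in chlorella-1 and fell by 2.63 ± 0.81 on the log2 scale with adjusted p = 0.0296. Its relative LOX3 had 15.01, 7.12 and 8.702 CPM in Col and 31.95, 113 and 19.3 CPM in chlorella-1 and rose by 2.41 ± 0.67 on the log2 scale with adjusted p = 0.0211. LOX2 had an adjusted p of 0.0711 to 0.087 without Col replicates 1 or 3 or chlorella-1 replicate 1, and LOX3 of 0.0736 to 0.0754 without Col replicates 2 or 3. AOS, of the next step, was not called, at a log2 fold change of -0.14.

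Of the salicylic acid genes, EDS16, the isochorismate synthase that makes most of the hormone, had 8.84, 28.1 and 10.7 CPM in Col and 0.693, 3.23 and 5.68 CPM in chlorella-1 and fell by 2.31 ± 0.76 on the log2 scale with adjusted p = 0.0376. NPR1, a receptor of it, fell by 1.05 ± 0.23 on the log2 scale, and EDS1, PAD4 and the exporter EDS5 fell, with log2 fold changes of -1.04, -2.09 and -2.06. EDS5 lies opposite another counted gene. The adjusted p of EDS16 was 0.0596 to 0.123 without Col replicates 2 or 3 or chlorella-1 replicate 2, that of EDS1 0.0532 to 0.0695 without Col replicate 2 or chlorella-1 replicate 1 and that of PAD4 0.0661 to 0.147 without Col replicates 1, 2 or 3 or chlorella-1 replicates 1 or 2. The defence genes PR1, BGL2 and PR5 at the end of the pathway were not called. PR1 had 181, 331 and 116 CPM in Col and 36.2, 119.5 and 20.8 CPM in chlorella-1, groups that overlap by 1 library, with adjusted p = 0.0581, which was 0.00548 without chlorella-1 replicate 2. Of the cytokinin genes, the receptor HK2 fell from 9.61 to 2.54 CPM and the receptor HK3 rose from 55.99 to 162 CPM, and the response regulators RR5 and ARR9 fell, with log2 fold changes of -1.81 and -2.37 and an adjusted p of 0.0598 without Col replicate 2 and of 0.0516 without Col replicate 2. RR16, a response regulator outside the list, rose from 4.68 to 184 CPM. Of the Aux/IAA and auxin response factors 4 of 27 rose and 8 fell with a median log2 fold change of -0.68.

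The G-box, bound by bZIP and bHLH factors of abscisic acid and jasmonate signalling, was searched as CACGTG, a palindrome, in the 250 bases before each start site. It was in 7.50% of 18061 promoters, in 9.91% of those of genes that rose and in 6.33% of those of genes that fell. Of genes with the G-box 38.1% rose and 19.5% fell, and of those without it 28.1% and 23.4%. Motif counts, here and for the motifs below, run over tested genes, not only those reaching the CPM minimum in both genotypes. They thus include genes that reached it in chlorella-1 alone or in Col alone, whose direction the filter fixed. The part of those genes in the shares was not tested. In the 2C protein phosphatases 8 of 12 genes with a G-box rose, and 18 of 45 without. In the JAZ proteins 3 of 3 with it rose and 7 of 8 without, with a median log2 fold change of 2.65 with it and 2.76 without. The 200 bases before the start site are shown for 3 genes that rose in different hormone and factor classes, read from the TAIR10.1 genome on the gene's strand, with the G-box in capitals. PP2CA lies at chr3:3585851-3586050 on the minus strand, NAC019 at chr1:19698483-19698682 on the minus strand, and JAZ3, chosen for its 2 copies after its values were seen, at chr3:6119507-6119706 on the plus strand.
PP2CA: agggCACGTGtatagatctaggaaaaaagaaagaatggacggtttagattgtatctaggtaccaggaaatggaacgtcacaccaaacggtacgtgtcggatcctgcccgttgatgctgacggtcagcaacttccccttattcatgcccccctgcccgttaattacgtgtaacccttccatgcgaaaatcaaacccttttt
NAC019: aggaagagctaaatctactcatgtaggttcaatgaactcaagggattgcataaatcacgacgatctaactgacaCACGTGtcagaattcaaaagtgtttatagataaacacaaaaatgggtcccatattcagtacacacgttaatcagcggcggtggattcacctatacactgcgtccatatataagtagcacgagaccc
JAZ3: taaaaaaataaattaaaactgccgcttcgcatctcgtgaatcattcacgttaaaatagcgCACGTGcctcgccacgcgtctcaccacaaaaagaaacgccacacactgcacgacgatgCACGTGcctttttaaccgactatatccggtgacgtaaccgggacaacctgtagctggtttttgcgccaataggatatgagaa
The motif begins 196 bases before the start in PP2CA, 126 in NAC019, and 140 and 82 in JAZ3. JAZ3 rose by 2.65 ± 0.43 on the log2 scale, from 9.08 to 56.9 CPM. A match is a run of letters and does not show that a factor is bound.

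Among kinases inside the cell more rose than fell, and in most classes of receptor kinases at its surface more fell than rose. Of the MAP kinases and their activating kinases 20 of 40 rose and 8 fell, with a median of 0.82, and of the calcium-dependent and CIPK kinases 18 of 39 rose and 4 fell, with a median of 0.68. MAPKKK18, a kinase induced by abscisic acid, had 3.59, 1.54 and 10.5 CPM in Col and 278, 371 and 250.01 CPM in chlorella-1, and rose by 5.84 ± 0.75 on the log2 scale with adjusted p = 0.00108. Its relative MAPKKK17 rose by 5.75 on the log2 scale and MPK11 by 4.90 ± 0.41. CIPK17 had 16.8, 15.3 and 16.03 CPM in Col and 185, 217 and 240.3 CPM in chlorella-1, tight in both genotypes, and rose by 3.74 ± 0.21 on the log2 scale with adjusted p = 0.000207. Among the members that fell was MPK2, with a log2 fold change of -1.75.

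In 3 classes of receptors at the cell surface and in the intracellular receptors of immunity more members fell than rose. At the surface 9 of 85 leucine-rich repeat kinases rose and 41 fell, 1 of 24 cysteine-rich receptor-like kinases (CRKs) rose and 13 fell and 2 of 11 wall-associated kinases rose and 7 fell. Inside the cell 6 of 103 NBS-LRR resistance proteins rose and 57 fell. In that order the median log2 fold changes were -1.12, -1.28, -1.72 and -1.001. Of lectin receptor kinases 10 of 45 rose and 8 fell, nearer to the shares of all genes. WAK1, which links pectin to the plasma membrane, had 69.6, 86.1 and 45.6 CPM in Col and 1.43, 4.76 and 10.12 CPM in chlorella-1, without overlap, and fell by 3.63 ± 0.68 on the log2 scale with adjusted p = 0.00435. FLS2, the receptor of bacterial flagellin, had 6.64, 7.71 and 9.38 CPM in Col and 0.567, 1.55 and 1.18 CPM in chlorella-1 and fell by 2.86 ± 0.39 on the log2 scale with adjusted p = 0.0013. FLS2 lies opposite another counted gene. RPP5, a resistance protein against downy mildew, had 146, 129.8 and 121 CPM in Col and 66.8, 32.1 and 71.7 CPM in chlorella-1 and fell by 1.22 ± 0.32 on the log2 scale with adjusted p = 0.0166.

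Within these families a few members did otherwise. RPP5 itself had an adjusted p of 0.0513 without Col replicate 1. SNC1, an NBS-LRR gene of the same cluster as RPP5, was not called, at a log2 fold change of -0.31, and the NBS-LRR genes AT4G14370 and AT4G19520 rose from 6.92 to 152 CPM and from 50.02 to 279 CPM. CRK36 rose from 7.73 to 54.4 CPM while CRK21, CRK18 and CRK5 fell, with log2 fold changes of -5.19, -2.40 and -2.93. WAKL2 rose from 3.66 to 49.1 CPM. Members of these families are close in sequence and in tandem, so reads of near-identical copies may be shared between them.

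WRKY factors bind the W-box, searched on both strands as TTGACT and TTGACC, which can share their end base. TTGACT was in 52.8% of the promoters of 36 tested CRK genes and in 34.5% of those of 113 tested NBS-LRR genes, against 19.1% of all 18061. Within the families genes with the motif did not fall more often. Of the CRK genes 8 of 19 with the motif fell and 9 of 17 without it. Of the NBS-LRR genes 16 of 39 with it fell and 44 of 74 without it. Both families include genes that reached the CPM minimum in Col alone, whose direction the filter fixed. The promoters of 2 CRK genes that fell are shown with the W-boxes in capitals, for CRK18 at chr4:12170081-12170280 and for CRK5 at chr4:12120221-12120420, both on the minus strand of TAIR10.1.
CRK18: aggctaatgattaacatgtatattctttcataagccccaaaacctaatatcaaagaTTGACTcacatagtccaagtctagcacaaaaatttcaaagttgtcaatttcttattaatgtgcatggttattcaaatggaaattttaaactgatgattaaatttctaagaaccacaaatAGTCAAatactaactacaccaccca
CRK5: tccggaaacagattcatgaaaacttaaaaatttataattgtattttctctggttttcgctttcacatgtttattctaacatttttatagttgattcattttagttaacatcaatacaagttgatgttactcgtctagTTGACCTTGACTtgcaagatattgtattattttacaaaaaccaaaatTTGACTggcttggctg
CRK18 holds TTGACT once on each strand, 144 and 25 bases before the start. CRK5 holds TTGACC and TTGACT side by side, 63 and 57 bases before the start, and TTGACT again at 16. CRK18 had 32.5, 40.8 and 29.98 CPM in Col and 7.77, 3.11 and 8.597 CPM in chlorella-1, a log2 fold change of -2.40 ± 0.39 with adjusted p = 0.00241, and CRK5 had 6.34, 8.29 and 3.78 CPM in Col and 0.614, 0.499 and 1.29 CPM in chlorella-1, at -2.93 ± 0.47 with adjusted p = 0.00232.

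**Figure D3:**
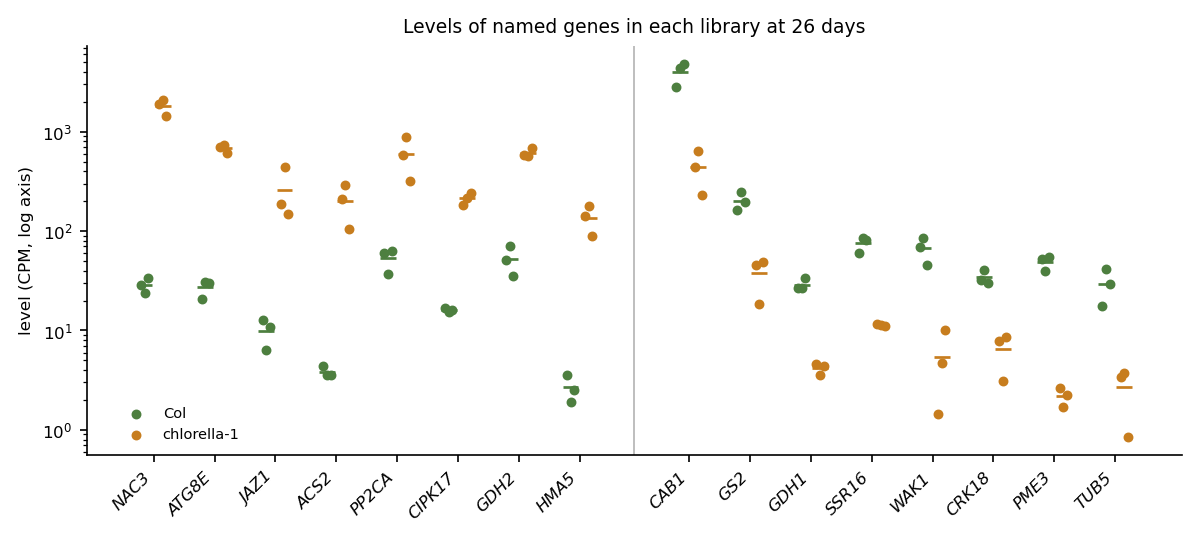
Normalised read count (CPM, log axis) of 16 named genes in the 6 libraries at 26 days, 3 points per genotype and bars at the means. The 8 genes on the left rose in chlorella-1 and the 8 on the right fell, and no mutant point overlaps the Col points of the same gene.

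Most ribosomal protein genes fell, with medians nearer to 0 than those of photosynthesis, while other genes for making proteins were called less uniformly. Of the ribosomal proteins whose description names no organelle 9 of 272 rose and 184 fell, with a median log2 fold change of -0.999 and library medians of -0.73, -1.01 and -0.83. Of those with an organelle named none of 18 rose and 12 fell, with a median of -1.24. emb2386, a protein of the large cytosolic subunit, had 82.9, 82.2 and 81.8 CPM in Col and 51.1, 35.6 and 43.8 CPM in chlorella-1, a log2 fold change of -0.92 ± 0.20 with adjusted p = 0.00757, a small fall with no overlap between genotypes. SSR16, a small-subunit protein of organelle ribosomes, had 60.2, 84.3 and 80.8 CPM in Col and 11.5, 11.3 and 10.99 CPM in chlorella-1. It fell by 2.74 ± 0.21 on the log2 scale with adjusted p = 0.000258. The description of SSR16 names no organelle, so it is counted among the 272, which thus do not stand for the cytosolic ribosome alone. RPL10B and AT5G15260 were among the 9 that rose, from 0.835 to 17.9 CPM and from 7.95 to 112 CPM. RPL10B has close paralogues, of which SAC52 was not called, at a log2 fold change of 0.62. Of the aminoacyl-tRNA synthetases 7 of 50 rose and 18 fell, and of the pentatricopeptide repeat proteins, which process organelle RNA, 13 of 152 rose and 46 fell with a median of -0.70. Another 56 pentatricopeptide repeat genes passed through Col alone.

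Translation factors as a class stood near 0: 24 of 86 rose and 25 fell with a median of -0.02. The class was sorted by description words and includes TFIIS, described as a transcript elongation factor, which rose. Factors of the chloroplast, FUG1 and emb2726, fell, with log2 fold changes of -2.53 and -2.18. ELF5A-3, a cytosolic factor, had 48.1, 49.004 and 51.3 CPM in Col and 193, 239.8 and 189.7 CPM in chlorella-1 and rose by 2.07 ± 0.20 on the log2 scale with adjusted p = 0.000417, and the initiation factor AT5G54940 rose from 135 to 664 CPM.

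Many ribosomal protein promoters carry the site II element, searched as TGGGCC, and the telobox, searched as AAACCCTA, both on either strand, and the motifs can share an end base. Of the promoters of 280 tested ribosomal protein genes with no organelle named, 47.5% held the site II element, against 17.1% of all. The telobox was in 14.6% of them, against 3.52% of all. Of the 133 genes with the site II element 75.9% fell, and of the 147 without it 57.1%. Over all promoters 26.5% of genes with the site II element fell and 22.4% without, and 29.2% with the telobox fell and 22.9% without. These shares include the ribosomal protein genes, so they are not a separate observation. The 200 bases before the start are shown for 2 ribosomal protein genes that hold both motifs, chosen after their values were seen: AT4G27090, for protein L14, at chr4:13595253-13595452, and AT5G15200, for protein S4, at chr5:4936430-4936629, both on the minus strand of TAIR10.1, with motifs in capitals.
AT4G27090: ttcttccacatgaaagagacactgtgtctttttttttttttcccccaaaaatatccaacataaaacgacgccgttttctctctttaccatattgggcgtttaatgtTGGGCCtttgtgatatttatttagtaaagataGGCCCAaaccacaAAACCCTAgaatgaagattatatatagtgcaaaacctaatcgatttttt
AT5G15200: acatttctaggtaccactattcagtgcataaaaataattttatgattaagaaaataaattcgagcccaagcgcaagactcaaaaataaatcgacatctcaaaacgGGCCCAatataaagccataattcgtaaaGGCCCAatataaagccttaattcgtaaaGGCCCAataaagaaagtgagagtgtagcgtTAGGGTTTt
In AT4G27090 the site II element lies 94 and 62 bases and the telobox 49 bases before the start, and in AT5G15200 they lie at 95, 67 and 39, and at 9. AT4G27090 had 52.4, 45.8 and 49.2 CPM in Col and 20.7, 14.3 and 21.3 CPM in chlorella-1 and fell by 1.39 ± 0.21 on the log2 scale with adjusted p = 0.00195. AT5G15200 had 46.9, 53.98 and 48.4 CPM in Col and 19.3, 18.2 and 19.4 CPM in chlorella-1 and fell by 1.39 ± 0.17 on the log2 scale with adjusted p = 0.000812. Neither gene's groups overlap.

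**Figure D4:**
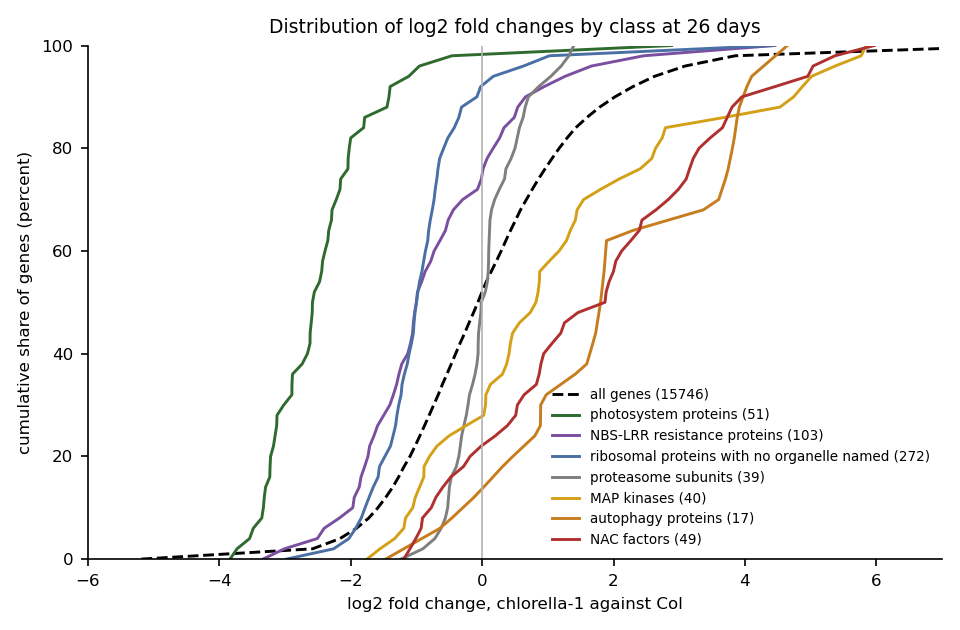
Cumulative share of genes (vertical axis, percent) against log2 fold change of chlorella-1 to Col at 26 days (horizontal axis), for 7 classes and for all 15746 genes, each over members reaching the CPM minimum in both genotypes. Photosystem, ribosomal and NBS-LRR proteins lie to the left of all genes over most of their range, and autophagy proteins, NAC factors and MAP kinases lie to the right. The class named proteasome subunits rises steeply near 0.

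Photosynthesis set the lower end of the classes. In it 1 of 24 light-harvesting proteins rose and 21 fell, 1 of 51 photosystem proteins rose and 48 fell, 2 of 26 Rubisco and Calvin cycle proteins rose and 18 fell and none of 15 proteins of tetrapyrrole synthesis rose and 11 fell. In that order the median log2 fold changes were -3.07, -2.58, -1.90 and -1.51. Among the 10 nuclear genes with the most counts in Col, 6 were photosynthesis genes, CAB1, LHB1B2, LHCA4, RCA, PSBR and LHCA3, and all 6 fell. RCA had an adjusted p of 0.0504 to 0.06 without Col replicates 1, 2 or 3. In chlorella-1 none of the 10 most counted was a photosynthesis gene, and SAG12, NYC1, UBQ10, RD20 and RD21A stood among them. The mesophyll markers, which overlap with these classes, fell as well, and the part of fewer mesophyll cells was not tested. CAB1, a chlorophyll-binding antenna protein with close paralogues, fell from 3990.1 to 438 CPM by a log2 fold change of -3.19 ± 0.45.

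Transport genes are given by what they carry, and the counts of amino acid transporters and aquaporins were not far from the shares of all genes. Among them 21 of 48 metal transporters rose and 11 fell, 9 of 18 phosphate and sulfate transporters rose and 2 fell, 12 of 36 amino acid transporters rose and 5 fell and 3 of 16 aquaporins rose and 5 fell. In that order the median log2 fold changes were 0.32, 0.78, 0.34 and -1.10. The aquaporin median was lowest in replicate 2 of chlorella-1, at -0.51, -2.08 and -0.18 over the tested members. HMA5, a copper pump, had 3.604, 1.91 and 2.54 CPM in Col and 142, 178 and 88.6 CPM in chlorella-1 and rose by 5.66 ± 0.40 on the log2 scale with adjusted p = 0.000258. NRT1.5, a nitrate transporter of the vascular tissue, had 41.6, 12.2 and 14.3 CPM in Col and 303, 544 and 282 CPM in chlorella-1 and rose by 4.05 ± 0.58 on the log2 scale with adjusted p = 0.00157. SWEET2, a vacuolar sugar carrier, had 21.2, 33.6 and 38.1 CPM in Col and 468, 683 and 525 CPM in chlorella-1 and rose by 4.17 ± 0.32 on the log2 scale with adjusted p = 0.000259. None of the 3 overlapped between genotypes. Phloem markers summed to 430 to 736 CPM in chlorella-1 against 268 to 296 CPM in Col, and their part in the transporter levels was not tested. Of the amino acid permeases AAP4 and AAP1 rose, with log2 fold changes of 2.85 and 3.74 and AAP2 fell by 2.43 on the log2 scale, and of the sugar carriers STP1 and STP4 fell, with log2 fold changes of -1.46 and -1.71. The aquaporins PIP2A and TIP2 fell from 233 to 63.8 CPM and from 199 to 29.3 CPM, and the adjusted p of PIP2A was 0.054 to 0.085 without Col replicates 1, 2 or 3.

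Cell wall genes moved in both directions within single classes. ADPG1 and PGAZAT are polygalacturonases known from organ abscission and pod opening. ADPG1 had 2.44, 0.248 and 3.91 CPM in Col and 230.3, 393 and 105 CPM in chlorella-1, a log2 fold change of 6.78 ± 1.06 with adjusted p = 0.00215. PGAZAT had 16.6, 11.9 and 40.9 CPM in Col and 565, 609 and 703 CPM in chlorella-1 and rose by 4.76 ± 0.52 on the log2 scale with adjusted p = 0.000623. The pectin methylesterase PME3 had 52.8, 39.8 and 54.3 CPM in Col and 2.66, 1.71 and 2.23 CPM in chlorella-1 and fell by 4.47 ± 0.26 on the log2 scale with adjusted p = 0.000208. CEV1 and CESA2, cellulose synthases of the primary wall, fell from 105 to 41.2 CPM and from 34.6 to 6.04 CPM, while the cellulose synthase-like genes CSLG2 and CSLB03 rose, with log2 fold changes of 2.95 and 2.79. These enzymes loosen or build the wall, and their families did not lean 1 way. Of cellulose synthases and their relatives 7 of 16 rose and 6 fell. Of pectin methylesterases and their inhibitors 8 of 24 rose and 9 fell, and 20 others passed through chlorella-1 alone. The sum of flower and pollen markers was also higher there, mostly through VGD1, at 11.4 to 38.0 CPM against 0.670 to 1.34 CPM, and their part was not tested.

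Growth genes other than those of the wall had no single direction. Of the genes whose description holds the letters "cyclin" 7 of 26 rose and 3 fell, with a median log2 fold change of 0.11. They do not stand for cyclins alone, since "cycling DOF factor" holds the same letters. CDF2, a factor so described, was among those that rose, and CDF3 among those that fell. Of the kinesins 1 of 12 rose and 4 fell. Of the tubulins 2 of 18 rose and 9 fell, with a median log2 fold change of -0.86, and TUB5 had 17.7, 41.3 and 29.3 CPM in Col and 3.42, 3.76 and 0.858 CPM in chlorella-1, a log2 fold change of -3.46 ± 0.59 with adjusted p = 0.00304. The 2 that rose, TUA2 and AT1G50020, overlap each other on opposite strands. Of the DNA replication genes 2 of 25 rose and 9 fell. Core histones went the other way, as 17 of 33 rose and 1 fell with a median of 0.63. AT4G40040, 1 of several near-identical histone genes, had 131, 130.4 and 141 CPM in Col and 315, 377 and 441 CPM in chlorella-1 and rose by 1.49 ± 0.21 on the log2 scale with adjusted p = 0.00153.

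Of late embryogenesis abundant proteins, which protect dry or stressed cells, 17 of 33 rose and 5 fell with a median log2 fold change of 1.21, and 15 others passed through chlorella-1 alone. Of small heat shock proteins 8 of 16 rose and none fell, and HSP70 and HSP101 rose, with log2 fold changes of 3.85 and 3.48, whereas the chaperones of the endoplasmic reticulum BIP1 and BIP2 fell, with log2 fold changes of -1.23 and -1.203. HSP101 lies opposite another counted gene. RD20, a caleosin induced by drought and abscisic acid, had 176, 69.1 and 126 CPM in Col and 1869, 3429 and 1457 CPM in chlorella-1 and rose by 4.18 ± 0.51 on the log2 scale with adjusted p = 0.000869.

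Small nuclear RNA genes, whose products build the spliceosome, were higher: 20 of 25 rose and none fell, with a median log2 fold change of 2.31. Library medians were 1.06, 2.84 and 2.07, lowest in replicate 1 and highest in replicate 2. U2.1 had 22.6, 19.96 and 11.8 CPM in Col and 56.9, 276 and 163 CPM in chlorella-1 and rose by 3.19 ± 0.58 on the log2 scale with adjusted p = 0.00399. The copies of a snRNA are nearly identical, so the level of 1 copy is uncertain.

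Most of the difference at 26 days was not seen at 14 days. In a fit of all 12 libraries with 20398 genes tested, 24 genes rose and 9 fell in chlorella-1 against Col at 14 days, 0.118% and 0.0441%. Of these 24 and 9 genes, 17 also rose and 8 also fell at 26 days, where 28.9% of all genes tested rose and 22.7% fell. Without replicate 2 of chlorella-1 at 26 days the counts at 14 days were 126 and 106, and with any other library left out they were 1 to 32 and 4 to 13. The change between ages in the genotype difference was called upward for 4323 genes, 21.2%, and downward for 4283, 21.0%. Of the 5530 genes that rose at 26 days, 3969 were also called in that difference, with a median log2 fold change of 0.06 at 14 days and 1.87 at 26 days in the same fit. Of the 4358 that fell, 3555 were, with medians of -0.10 and -1.54. Both sets of genes were picked by their values at 26 days, and the difference between ages uses the same libraries. These counts and medians are thus no separate test of a change with age.

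By class, the median at 14 days lay between -0.53 for tetrapyrrole synthesis and 0.54 for the JAZ proteins among the classes drawn, against -3.07 to 2.61 at 26 days. Ribosomal proteins with no organelle named stood at -0.41 and -1.004, and 98 of 272 were called downward in the difference. NBS-LRR proteins stood at 0.05 and -1.01, with 60 of 103 called downward. ATG8E had 12.2 ± 1.56 CPM in Col and 17.1 ± 0.619 CPM in chlorella-1 at 14 days, a log2 fold change of 0.48 ± 0.18, and the change between ages was 4.16 ± 0.26, adjusted p = 4.68e-06. JAZ1 had 1.72 ± 0.878 CPM in Col and 2.67 ± 0.768 CPM in chlorella-1 at 14 days, a log2 fold change of 0.64 ± 0.48, and the change between ages was 4.06 ± 0.68, adjusted p = 0.000852. NAC3 (AT3G15500) was among the genes called at both ages: at 14 days it had 0.043 ± 0.0376 CPM in Col and 0.487 ± 0.2 CPM in chlorella-1, levels near 0, with an adjusted p of 0.0412. WAK1 had 58.1 ± 13.5 CPM in Col and 44.7 ± 6.82 CPM in chlorella-1 at 14 days, a log2 fold change of -0.38 ± 0.50, and the change between ages was -3.25 ± 0.72, adjusted p = 0.00429.

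**Figure D5:**
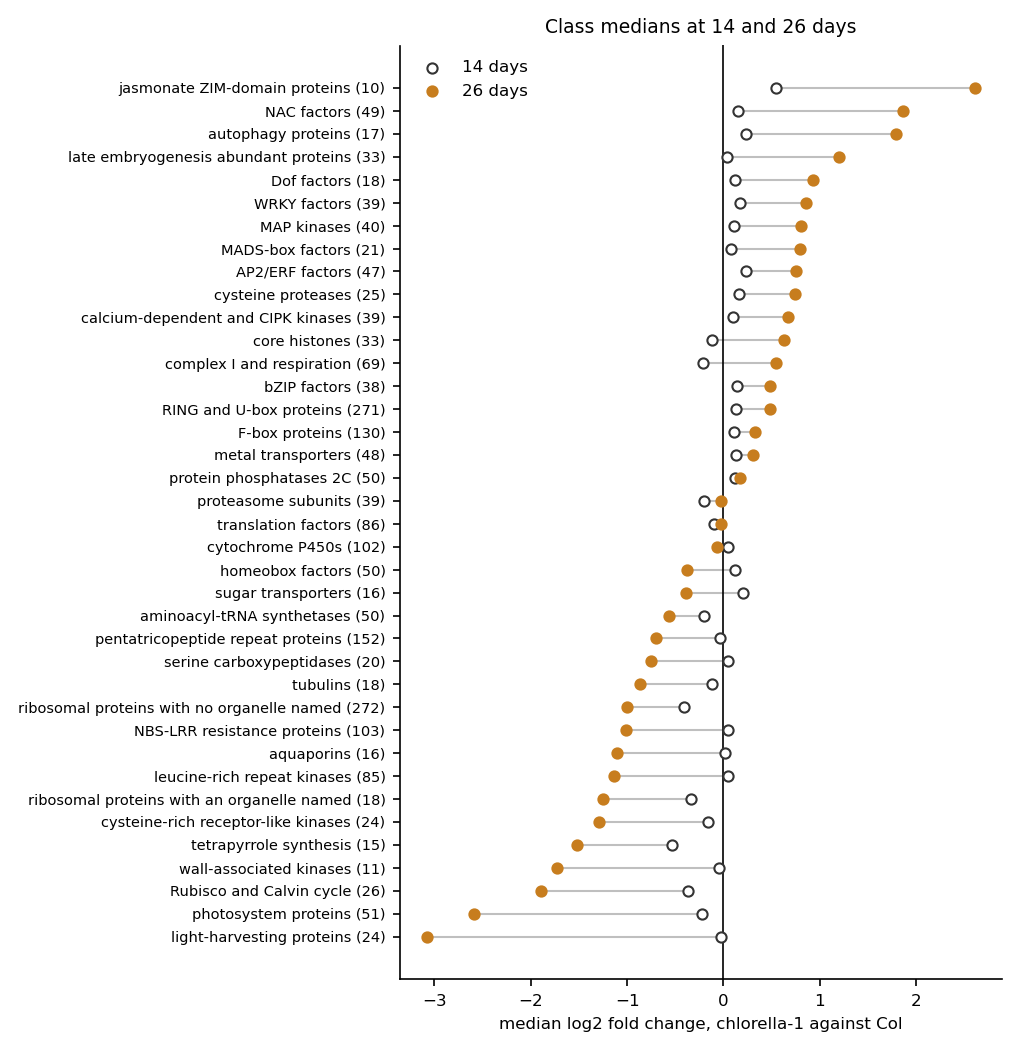
Median log2 fold change of chlorella-1 against Col by class at 14 days (open points) and at 26 days (filled points), from 1 fit of the 12 libraries, for members reaching the CPM minimum in both genotypes at 26 days. Most 14-day medians lie near 0, and the 26-day medians spread from -3.07 to 2.61.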

How the data were processed

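Leaf RNA of 4 groups (Col and chlorella-1 at 14 and 26 days, 3 libraries each) was depleted of ribosomal RNA and sequenced as stranded total RNA, per the labels' protocols. The values used are the authors' deposited whole-number counts per gene. The submitters' processing notes name STAR, HISAT2, HTSeq, StringTie, DESeq2 and the build TAIR10, without roles, and the strand setting is not given in the sources used here. The 12 deposited FPKM columns were not used. Of 38338 rows, 50 name no gene and were left out, 0.0865 to 0.216% of the counts at 26 days.

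The 6 libraries at 26 days were fitted alone with edgeR 4.0.16 in R 4.3.3 (filterByExpr, TMM scaling, quasi-likelihood test, two-sided, Benjamini-Hochberg over 19159 genes, threshold 0.05). The change between ages is the interaction in a fit of all 12 libraries. Where nothing says that replicates came from separate plants, p-values measure only the spread between these samples. Total counts of 45120547 to 62688704 limit low genes first. Classes were built from deposited description words and locus lists, and classes, lists, members and tests were chosen with earlier results of these data known. Named genes follow a rule: the 12 largest rises and falls among called genes with a symbol, no overlap between genotypes and at least 5 CPM in a genotype, the most counted and most changed members of each class, all list members, and the 10 most counted nuclear genes per genotype. The values of 1 list member are not reported here. The rule also names psbA as a reference point. Genes outside the rule are said to be chosen after their values were seen. Promoters are the 250 bases before annotated starts in the TAIR10.1 genome. Replicate numbers are in both genotypes, and the labels do not say what they mark. Deviations of same-numbered libraries correlated by 0.0758, 0.129 and -0.0115. With 3 libraries per genotype this cannot decide whether they are pairs, and they were not taken as pairs. The fits were tested on simulated data with far fewer changed genes and less spread between libraries than here, so that test does not show how they perform on these data. Alternatives were other scalings, filters, thresholds and tools (limma 3.58.1 voom, DESeq2 1.42.0), the replicate block and leaving out each library.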

Additional observations from a re-analysis of the deposited data

Results flagged for a closer look

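The genotype difference was not the same at the 2 ages. By edgeR's quasi-likelihood test of the interaction between genotype and age over 20398 genes, the difference between chlorella-1 and Col changed upward from 14 to 26 days in 4323 genes and downward in 4283 genes. These calls drew attention because they test the change itself.

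The 50 rows that name no gene, all on the mitochondrial genome, took 0.142%, 0.151% and 0.216% of the counts in chlorella-1 replicates 1, 2 and 3 at 26 days, above the 0.106%, 0.0865% and 0.0987% of the Col libraries of that age. These rows entered no comparison, and the share was not tested.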

How the results depend on the processing

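Counts of called genes kept within 1.5 times of 5530 higher and 4358 lower under every other scaling, filter and tool tried, and a fit of all 12 libraries gave 6429 and 6492. At an adjusted p under 0.01, 3927 rose and 1950 fell, 5877 in all. Leaving out 1 library at a time gave 4396 to 5606 higher and 2687 to 4814 lower, 7083 to 10420.0 in all, and the counts were lowest without Col replicate 3. With the replicate block 4931 rose and 3975 fell, and the labels do not say whether equal replicate numbers share a batch. Under it LOX3 (adjusted p = 0.0565), EIN3, EDS1, PAD4, PIP2A, CYP707A1 and AT1G15405 were not called, and PR1 and EIN2 were called lower. Of 97 classes and lists with at least 5 members, 61 had more members called higher than lower and 68 leaned the same way under every alternative. No class median beyond 0.5 and no named gene changed sign. Of 133 called named genes 109 were called under every alternative. Without psbA, the plastid gene with the most counts, the differences in share were 25.2, -26.2 and 1.06 percentage points for nuclear, plastid and mitochondrial genes, against 15.5, -16.1 and 0.580. At 14 days the counts, 24 and 9, were least stable: limma voom called 27 lower, the replicate block gave 7 higher and 4 lower, and leaving out 1 library gave 1 to 126 higher and 4 to 106 lower. These settings for the ages were chosen after seeing the data. HAI3 and CYP707A1 were not called by limma voom, with adjusted p = 0.0730 and 0.0521. PR1 was called lower by DESeq2 and limma voom. GAMMA-VPE and SAC52 were called higher by DESeq2 and in the fit of all 12 libraries. Depth limits genes near 0.171 CPM most.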

Other observations

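Genes known from pollen appeared in the libraries of old chlorella-1 leaves. BGAL11, a beta-galactosidase, was at 0 in all 3 Col libraries, and VGD1 and VGDH1, pectin methylesterases of pollen tubes, RALFL8 and RALFL9, small signalling peptides, and AGP23, an arabinogalactan protein, were at 0.177 CPM or less there. VGD1 had 0, 0.177 and 0 CPM in Col and 33.9, 7.75 and 32.7 CPM in chlorella-1, RALFL9 had 0, 0.0354 and 0.0339 CPM in Col and 12.7, 3.54 and 12.9 CPM in chlorella-1 and AGP23 had 0, 0.0532 and 0 CPM in Col and 6.38, 2.26 and 8.94 CPM in chlorella-1. The mutant libraries are uneven, and replicate 2 is the lowest in all 3 genes. All genes named in this paragraph reached the CPM minimum in chlorella-1 alone, so the filter fixed their direction. Whether the sampled tissue of the mutant held flower parts was not tested.

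The nuclear gene with the most counts was the same in both genotypes. RR3, a cytokinin response regulator, had 9956, 10860.3 and 9159 CPM in Col and 13106, 15972 and 16948 CPM in chlorella-1, not called, with adjusted p = 0.104. The groups did not overlap, and RR3 was called higher by DESeq2, by limma voom and in the fit of all 12 libraries. AT1G15405, described as other RNA, had 4621, 6487 and 4483 CPM in Col and 9504, 13970.1 and 13869 CPM in chlorella-1 and was higher in all 3 mutant libraries. AT1G07590, a tetratricopeptide repeat protein, had 572, 608 and 615 CPM in Col and 5776, 6709.6 and 4429.9 CPM in chlorella-1, and only RR3 and AT1G15405 had more counts in chlorella-1 among nuclear genes. Reads of abundant noncoding RNA within or beside a gene cannot be told apart from those of the gene in these counts.

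Further classes by description had members called in both directions. In each of them more rose than fell, as was so over all genes. Over all genes reaching the CPM minimum in both genotypes 28.3% rose and 23.9% fell. Of 91 calmodulin and EF-hand proteins 35 rose and 16 fell, of 45 ABC transporters 16 rose and 13 fell, and of 36 glutathione S-transferases 13 rose and 8 fell. Of 40 peroxisomal proteins 18 rose and 8 fell. Of 561 hypothetical and unknown proteins 186 rose and 83 fell. Of 805 described only by a transmembrane segment or a domain of unknown function 240 rose and 195 fell, near the shares of all genes.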
